A study of Mus musculus with 4 samples.

Results

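The genes of the L-type calcium channel subunits were examined for chromatin accessibility in wild-type and Carm1 mutant mouse hearts. The group held 7 genes: Cacna1c and Cacna1d for the pore, Cacnb1, Cacnb2 and Cacnb3 for the beta subunit, and Cacna2d1 and Cacna2d2 for the alpha2delta subunit. Members were all peaks of the deposited count table that overlapped one of these gene bodies or lay within 20 kb of either end (mm10), which gave 178 of 87948 peaks. Of these, 154 overlapped a gene body and 24 lay in the flanks. Cacna1c held 96 peaks, Cacnb2 23, Cacna1d 14, Cacna2d1 14, Cacna2d2 12, Cacnb1 10 and Cacnb3 9. All 178 passed the filter on low counts, and no peak belonged to more than 1 of the 7 genes. ATAC-seq, which reads out open chromatin through adapter insertion by a transposase, was carried out on hearts at postnatal day 14 from 2 wild-type and 2 Carm1 mutant libraries. Carm1 encodes an arginine methyltransferase that acts on histones and on transcriptional coactivators. The labels named the genotypes as wild type and Carm1 mutant and the tissue as heart. They named no allele, no Cre driver, no strain, no sex and no sorted cell type, and they did not say whether a library came from 1 animal or from several. The p-values therefore measure the spread between these libraries only.

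L-type channels carry the calcium current that enters a cardiomyocyte during the plateau of the action potential and that triggers calcium release from the sarcoplasmic reticulum. A channel is assembled from a pore-forming alpha1 subunit, an intracellular beta subunit that brings the pore to the membrane and sets its gating, and a largely extracellular alpha2delta subunit. In working myocardium the pore is mainly the product of Cacna1c, whereas the product of Cacna1d is best known from the sinoatrial node and the atria.

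The starts of transcription give the map on which the peaks were placed. RefSeq (GRCm38.p6, the assembly behind mm10) listed 13 starts for the 7 genes, all 7 of which were matched by symbol, and 8 of the 13 lay in a peak. None of the 8 peaks at starts passed edgeR's test, DESeq2 or limma voom, and 2 had an unadjusted p under 0.05. Of all 32851 starts in the same list, 43.2% lay in a peak. The 250 bases before the starts of Cacnb2 and Cacna1c are shown because these genes carried the falls in accessibility described below, and none of these falls lay at a start. Each gene had a start of high GC content and one of lower GC content, and all 4 starts were open. Sequences read 5′ to 3′ on the gene's strand, and capitals mark matches on either strand to 5 short motifs: CTA, any 4 bases and then TAG for MEF2 factors, AGATAA for factors of the GATA family, GGAATG for TEAD factors, AAGTG for the factor NKX2-5 and CANNTG for the E-box. An NKX2-5 match may overlap an E-box.
Cacnb2 start 1, chr2:14604056-14604305, plus strand: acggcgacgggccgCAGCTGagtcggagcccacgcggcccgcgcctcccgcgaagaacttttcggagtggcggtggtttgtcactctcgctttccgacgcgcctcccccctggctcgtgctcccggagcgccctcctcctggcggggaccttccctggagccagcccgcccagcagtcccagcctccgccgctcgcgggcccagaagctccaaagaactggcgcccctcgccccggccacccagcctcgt
Cacnb2 start 2, chr2:14823842-14824091, plus strand: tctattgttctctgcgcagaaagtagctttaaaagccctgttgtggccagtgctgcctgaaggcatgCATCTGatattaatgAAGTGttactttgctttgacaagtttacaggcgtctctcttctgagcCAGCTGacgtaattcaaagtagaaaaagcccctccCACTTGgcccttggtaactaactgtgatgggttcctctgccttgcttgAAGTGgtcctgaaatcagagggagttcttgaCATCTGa
Cacna1c start 1, chr6:119196410-119196659, minus strand: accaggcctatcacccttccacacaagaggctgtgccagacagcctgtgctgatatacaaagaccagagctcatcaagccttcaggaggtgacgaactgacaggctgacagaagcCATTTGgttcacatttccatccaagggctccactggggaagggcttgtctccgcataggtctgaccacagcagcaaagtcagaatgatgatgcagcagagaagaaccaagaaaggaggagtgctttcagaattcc
Cacna1c start 2, chr6:119108496-119108745, minus strand: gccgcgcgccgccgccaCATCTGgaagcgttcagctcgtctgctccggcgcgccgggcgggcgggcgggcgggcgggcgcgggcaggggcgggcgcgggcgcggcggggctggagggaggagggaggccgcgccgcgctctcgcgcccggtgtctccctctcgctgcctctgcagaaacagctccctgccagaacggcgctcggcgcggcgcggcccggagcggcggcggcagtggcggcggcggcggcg

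The first Cacnb2 window was 73.2% GC with 30 CG pairs and 1 E-box match, while the second was 46% GC with 3 CG pairs, 4 E-box and 3 NKX2-5 matches. In Cacna1c the first window was 51.6% GC with 2 CG pairs and the second 82.8% with 48, each with 1 E-box match. The median over all listed starts was 52.4% GC and 6 CG pairs. An E-box match was present in 66.2% of all windows of this length, an NKX2-5 match in 40.7%, a TEAD match in 12.6%, a GATA match in 9.99% and a MEF2 match in 3.2%. Among the 13 windows of the subunit genes, MEF2 and GATA letters were not found and TEAD letters occurred once, before the start of Cacna2d2. The 5 starts outside any peak were both starts of Cacna1d, the start of Cacna2d2, the second of Cacnb1 and the third of Cacna1c. GC content did not separate them from the open starts: the second Cacna1d start had 86.4% GC and 50 CG pairs, the Cacna2d2 start 74.4% and 34.

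The libraries held 15945420 to 19091969 counts in all peaks. The 10 peaks in the window of Carm1 itself summed to 171.4 and 166.3 CPM (counts per 1000000 counts of the TMM-adjusted library size) in the wild type and 183.3 and 184.4 CPM in the mutant (log2 fold change 0.09, edgeR's quasi-likelihood test, adjusted p = 0.616), and 1 of them rose and 1 fell. As the allele was not named, accessibility there does not check the genotype labels. Peaks on the Y chromosome had 131.3 and 74 CPM in the wild type and 233.2 and 142.6 CPM in the mutant. Sex was not labelled, and its part in the results below was not tested. The subunit gene peaks received 27067 to 36907 counts per library, with a median of 88 to 105 counts per peak and a lowest count of 13. Their median wild-type level of 5.72 CPM lay near that of all peaks, 5.48 CPM, and their median width was 605 bp against 533 bp over all peaks. Peaks summed over the cardiomyocyte marker genes Myh6, Tnnt2, Tnni3, Actn2, Ryr2, Myl2 and Ttn reached 4405 and 4001 CPM in the wild type and 5317 and 4533 CPM in the mutant, with 17 of 346 peaks called higher and 2 lower. The 6 endothelial marker genes summed to 1001 and 833.7 CPM in the wild type and 809.6 and 779.5 CPM in the mutant, with 4 of 89 peaks called lower and none higher. All 13 genes of these lists had peaks, and in both lists the genotypes did not overlap. Fibroblast (5 of 5 genes with peaks), mural (5 of 5), immune (4 of 5, none at Adgre1) and neuronal or glial genes (5 of 5) summed to between 223.1 and 384.6 CPM in every library. Both mutant libraries lay above both wild-type libraries in the fibroblast genes (309.1 and 350.6 against 285 and 295.9 CPM, 1 of 36 peaks called higher), the mural genes (321.1 and 384.6 against 297.4 and 305 CPM, 3 of 49) and the neuronal or glial genes (290.1 and 266.4 against 230.6 and 223.1 CPM, 3 of 21). In the immune genes the genotypes overlapped and none of 15 peaks was called. No peak of these 4 lists was called lower. Over all peaks 3.05% were called higher and 2.45% lower. In tissue, a smaller share of nuclei with an open site cannot be told apart from a less open site in each nucleus, and the part of cell composition in the results below was not tested.

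Of the 178 peaks, 5 fell and 2 rose in the mutant (edgeR's quasi-likelihood test, Benjamini-Hochberg adjusted p under 0.05 over all peaks), and 171 did not pass. Over all peaks 2.45% fell and 3.05% rose, and the shares among the subunit genes were 2.81% and 1.12%. The falls were 3 peaks of Cacna1c and 2 of Cacnb2, and the rises were 1 peak of Cacna1d and 1 near Cacnb3. Cacnb1, Cacna2d1 and Cacna2d2 had none in this fit, with DESeq2 or with limma voom, and 1, 5 and 0 of their peaks had an unadjusted p under 0.05. The median log2 fold change of mutant over wild type was -0.10 over the 178 peaks and -0.001 over all peaks. With scaling by total counts the split was 9 falls and 1 rise (2.92% and 2.75% over all peaks), and with trended (cyclic loess) offsets 9 falls and 2 rises (2.47% and 3.75% over all peaks).

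**Figure D1:**
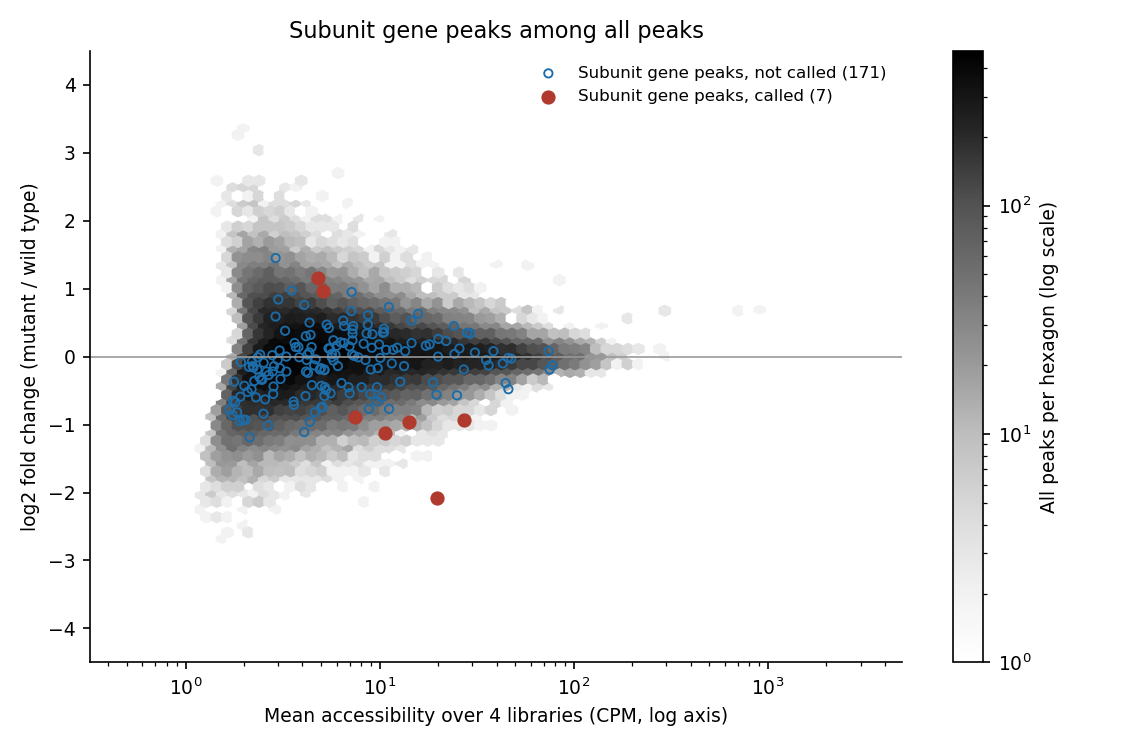
Log2 fold change (mutant over wild type) of each peak against its mean accessibility over the 4 libraries in CPM on a log axis; grey hexagons count all 87948 peaks, open blue circles are the 171 subunit gene peaks that did not pass the threshold and filled red circles the 7 that did. The Cacnb2 peak at -2.08 lies below the cloud of peaks of similar strength, and most open circles lie inside it.

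Both mutant libraries lay below both wild-type libraries in 55 of the 178 peaks (30.9%) and above them in 34 (19.1%). Over all peaks these shares were 25.7% and 25.8%. Of the 55, 34 belonged to Cacna1c, 8 to Cacnb2, 5 to Cacna2d1 and 4 to Cacna1d. Peaks of a gene share libraries and lie close together, so these counts carry no test.

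Cacna1c encodes the alpha1C pore of the main cardiac L-type channel and spans 610.1 kb of chromosome 6 (118587240 to 119197384, minus strand). Among its 96 peaks 3 fell and none rose. The first of the 3 lay inside the gene, 89.6 kb downstream of the second start (119018238 to 119019480). It had 15.8 and 21.7 CPM in the wild type and 10.6 and 8.71 CPM in the mutant, a log2 fold change of -0.96 (SE 0.22, adjusted p = 0.0139). The higher wild-type library was replicate 2, and the genotypes did not overlap.

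The remaining Cacna1c peaks that fell lay around the first start. One lay 23.9 kb downstream of it (119171942 to 119172981) and had 10.2 and 9.03 CPM in the wild type against 5.05 and 5.36 CPM in the mutant, a log2 fold change of -0.89 (SE 0.25, adjusted p = 0.0409). The other lay 5.33 kb upstream of it, inside the overlapping gene Dcp1b, which encodes an mRNA decapping factor (119201509 to 119201965). It had 11.1 and 18.1 CPM in the wild type and 6.75 and 6.69 CPM in the mutant, a log2 fold change of -1.12 (SE 0.25, adjusted p = 0.0132). Wild-type replicate 2 was again the highest library, the mutant libraries were nearly equal, and the groups did not overlap. Both of these peaks lie in the 20 kb windows of Cacna1c and of Dcp1b, so position does not give either to 1 of the 2 genes.

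The starts of Cacna1c gave no call. The peak at the first start (119195497 to 119197295) had 42 and 47.1 CPM in the wild type and 43.9 and 39.3 CPM in the mutant (log2 fold change -0.10, SE 0.15, adjusted p = 0.744). That at the second, GC-rich start (119106777 to 119109974) had 31.6 and 29 CPM against 34.5 and 28.7 CPM (log2 fold change 0.06, SE 0.16, adjusted p = 0.869). At both starts the libraries of the 2 genotypes overlapped. The strongest peak of the gene lay between these starts, 31 kb upstream of the second (119138839 to 119140178), at 47.8 and 59.4 CPM in the wild type and 33.5 and 43.5 CPM in the mutant. Its log2 fold change of -0.48 (SE 0.16) missed the threshold (adjusted p = 0.0851), although the groups did not overlap. Its log2 fold change was -0.68 without mutant replicate 2, -0.30 without mutant replicate 1 and -0.31 without wild-type replicate 2.

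Along the gene, values below 0 were most frequent between the first and second starts. There 15 of 19 peaks had a negative log2 fold change. Non-overlapping mutant libraries were lower in 8 and higher in 1. The peaks of this segment from 119174760 to the first start overlap Dcp1b, so position does not give them to 1 of the 2 genes. Between the second and the third start 41 of 64 peaks were negative and 21 had non-overlapping lower mutant libraries, while 11 had non-overlapping higher ones. Over all peaks 25.7% had non-overlapping lower and 25.8% non-overlapping higher mutant libraries. Beyond the third start 6 of 10 were negative, and non-overlapping mutant libraries were lower in 4 and higher in 2. A further 10 Cacna1c peaks had adjusted p between 0.05 and 0.1, of which 8 were lower and 2 higher in the mutant. The 2 higher ones, at 118731923 to 118732182 and 118873034 to 118873912, had log2 fold changes of 1.45 and 0.95 and were uneven in the mutant, at 2.37 and 6.18 CPM and at 12.2 and 6.69 CPM.

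Cacna1d encodes the alpha1D pore, which opens at more negative voltages than alpha1C. It spans 451.2 kb of chromosome 14 (30039941 to 30491156, minus strand) and held 14 peaks. A weak peak 206 kb downstream of its second start (30147668 to 30148240) rose from 2.89 and 3.10 CPM in the wild type to 6.45 and 6.82 CPM in the mutant, a log2 fold change of 1.15 (SE 0.29, adjusted p = 0.0244). The libraries of each genotype lay close together and the groups did not overlap. The strongest peak in its window (30479219 to 30480259) lay at an end of the overlapping gene Dcp1a and had 37.7 and 38.3 CPM in the wild type and 32.9 and 36.7 CPM in the mutant, with a log2 fold change of -0.13 (SE 0.15) that did not pass (adjusted p = 0.67). The other 12 peaks had log2 fold changes from -0.67 to 0.84.

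**Figure D2:**
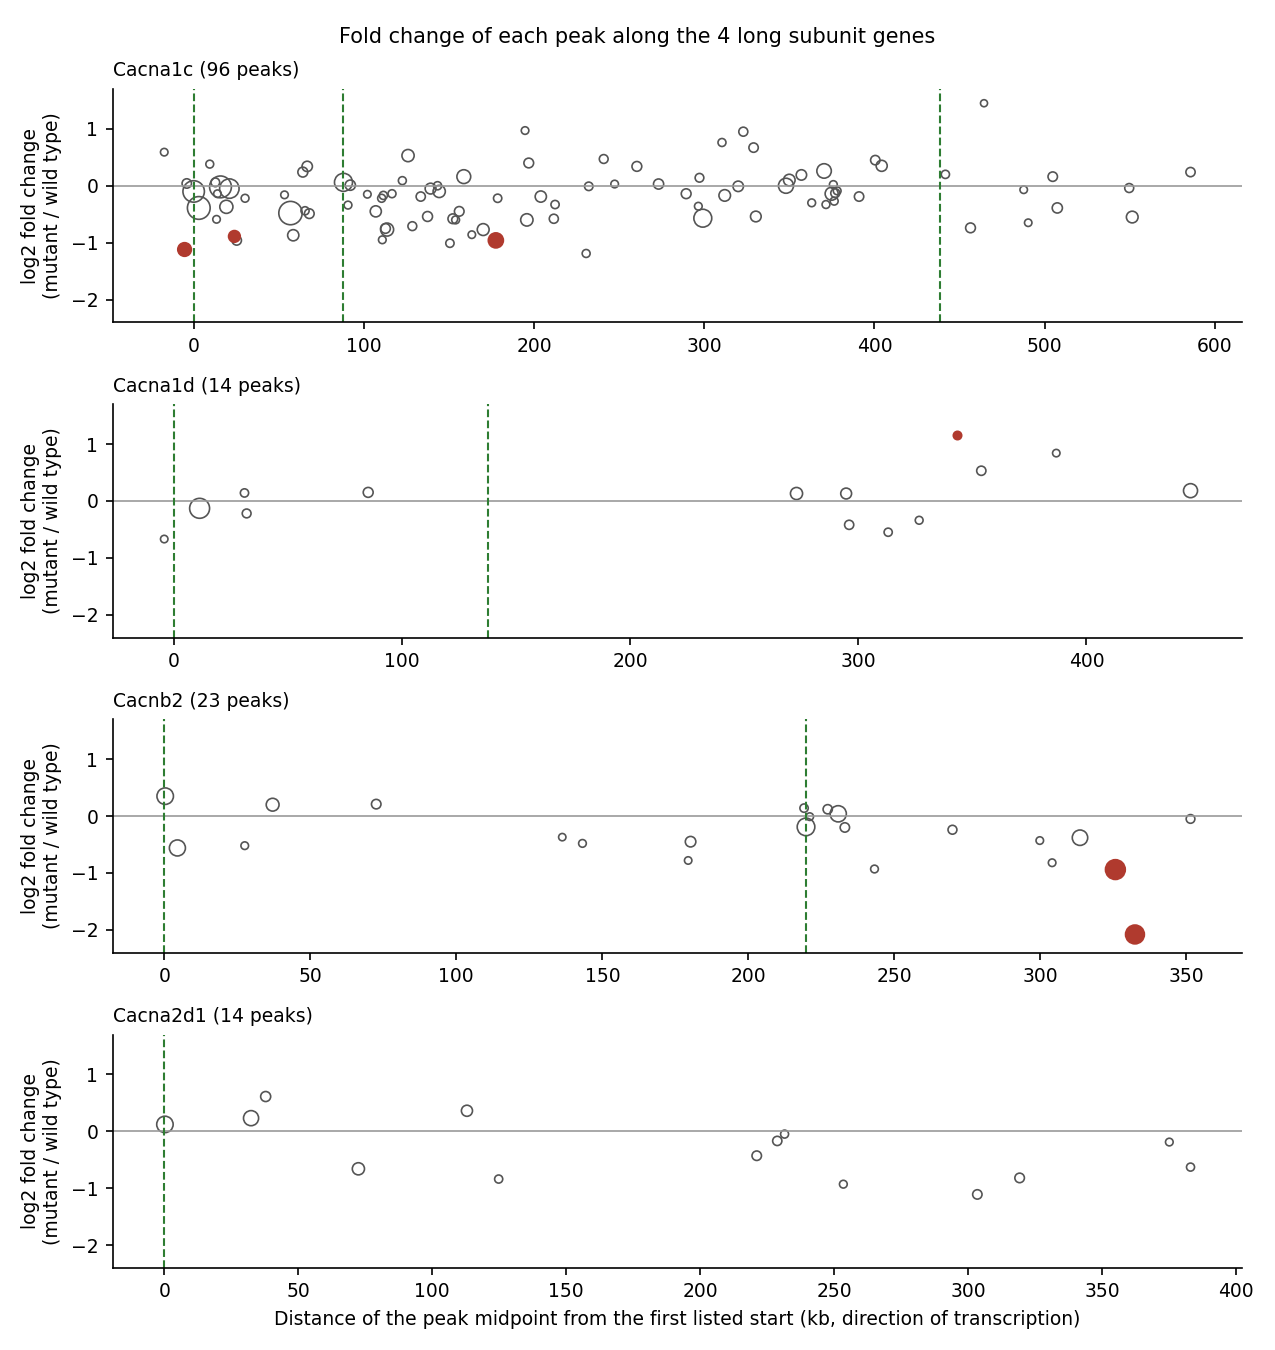
Log2 fold change (mutant over wild type) of each peak against the distance of its midpoint from the first listed start in kb, in the direction of transcription, for Cacna1c, Cacna1d, Cacnb2 and Cacna2d1. Circle area rises with wild-type CPM, filled red circles passed the threshold and dashed green lines are RefSeq starts. The 2 red Cacnb2 circles lie side by side far downstream of both starts, and no red circle sits on a dashed line.

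Cacnb2 encodes the main beta subunit of the heart. It spans 385 kb of chromosome 2 (14603861 to 14988811, plus strand) and held 23 peaks, all in the gene body. The peak at 14936363 to 14936977, 113 kb downstream of the second start, had 29.1 and 34.6 CPM in the wild type and 5.78 and 9.34 CPM in the mutant. The mutant mean was 23.7% of the wild-type mean, and the log2 fold change was -2.08 (SE 0.22, adjusted p = 0.000102). By p-value it ranked number 3 among the 2156 lower peaks of the whole table, and its neighbour described next number 121.

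A second Cacnb2 peak, at 14929496 to 14930433, lay 5930 bp before it. It was the strongest peak of the gene in the wild type, with 34.8 and 36.5 CPM, and fell to 19.7 and 17.4 CPM in the mutant, a log2 fold change of -0.94 (SE 0.16, adjusted p = 0.00316). In both peaks the 2 genotypes were well apart, and the spread within a genotype was small beside the difference. RefSeq listed no start and no other protein-coding gene at either peak. The gene table used here gave no exons, so neither peak was placed in an exon or an intron.

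At the starts of Cacnb2 no fall passed the threshold. The peak at the first start (14603687 to 14605580) had 24.8 and 24.9 CPM in the wild type and 37.2 and 26.1 CPM in the mutant (log2 fold change 0.35, SE 0.18, adjusted p = 0.261). The peak at the second start (14823692 to 14824392) had 28.5 and 29.3 CPM against 28.6 and 22.1 CPM (log2 fold change -0.19, SE 0.17, adjusted p = 0.563). Neither passed the threshold. At the first start mutant replicate 1 was high and mutant replicate 2 lay near the wild type, and without mutant replicate 2 that peak was called higher (log2 fold change 0.58, adjusted p = 0.0115).

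Of the loss in summed Cacnb2 accessibility, 74.5% lay in the 2 called peaks. These peaks were picked by their fall in the same libraries, so the share carries no test. Together they had 63.9 and 71.2 CPM in the wild type and 25.5 and 26.8 CPM in the mutant. The other 21 peaks summed to 187.7 and 196.1 CPM in the wild type and to 191.2 and 164.2 CPM in the mutant, where the groups overlapped. Upstream of the second start, the 11 peaks summed to 111.9 and 122.6 CPM in the wild type and 116.9 and 105.8 CPM in the mutant, and downstream of it the 12 peaks summed to 139.7 and 144.7 against 99.8 and 85.2 CPM.

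**Figure D3:**
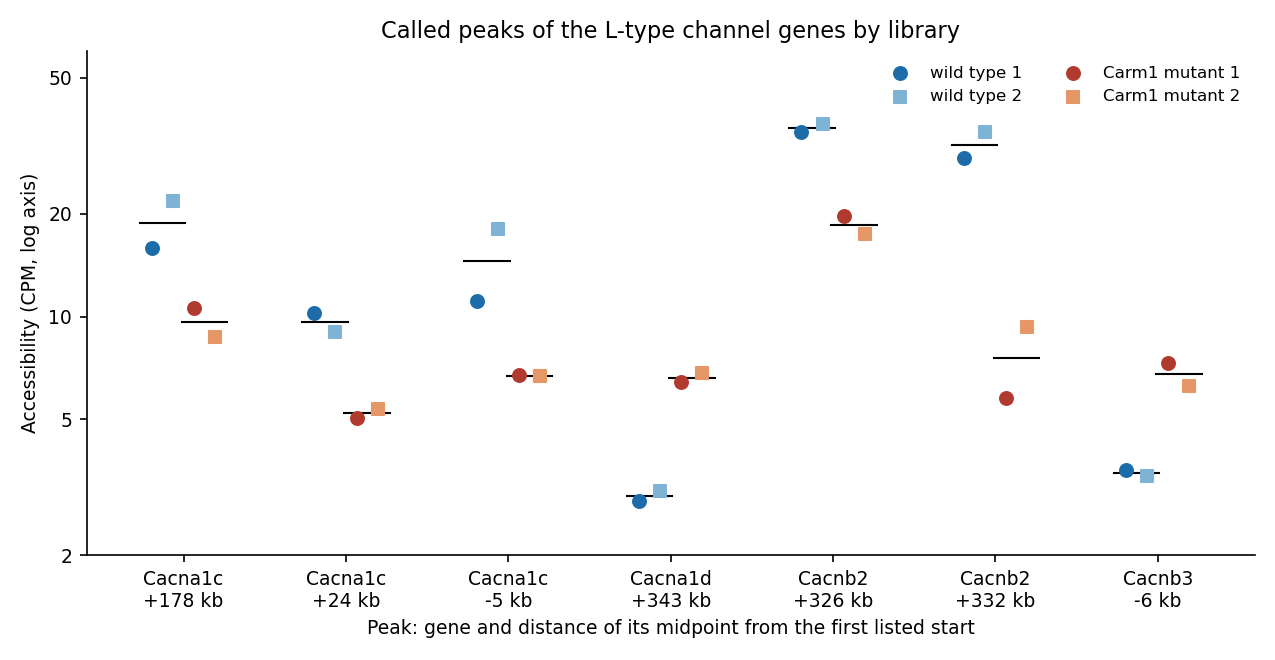
Accessibility in CPM (log axis) of the 7 peaks past the threshold in each of the 4 libraries, labelled by gene and by the distance of the peak midpoint from the first listed start; horizontal bars are genotype means (n = 2). The mutant libraries lie below the wild-type libraries in the 3 Cacna1c and 2 Cacnb2 peaks and above them at Cacna1d and Cacnb3.

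Cacnb3 encodes a beta subunit best known from neurons and smooth muscle and is a short gene of 16.1 kb on chromosome 15 (98628436 to 98644536, plus strand). The peak that rose lay 5.86 kb before its first listed start (98626170 to 98626767), at 3.57 and 3.41 CPM in the wild type and 7.30 and 6.25 CPM in the mutant, a log2 fold change of 0.96 (SE 0.28, adjusted p = 0.0495). That call lay at the edge of the threshold, and the peak also lies in the 20 kb windows of Adcy6 and Ddx23. RefSeq's gene body begins before that start, so the peak lay in the flank near the gene's beginning. The 2 next peaks in the direction of transcription were also higher in both mutant libraries without passing it. The first of these, over the beginning of the gene body (98628194 to 98629691), had 8.66 and 8.15 CPM against 12.6 and 15.2 CPM (log2 fold change 0.73, SE 0.22, adjusted p = 0.057), and the second, at the first listed start (98631120 to 98632746), had 12.5 and 12.3 CPM against 21.4 and 17 CPM (log2 fold change 0.63, SE 0.20, adjusted p = 0.0635). The peak at the first listed start had a log2 fold change of 0.78 without mutant replicate 2 and of 0.46 without mutant replicate 1. The peak at the second start (98634003 to 98634768) had a log2 fold change of -0.06 (SE 0.28, adjusted p = 0.928). The strongest peak of the window, at an end of the neighbouring gene Adcy6, an adenylyl cyclase gene (98606330 to 98610577), had 81.4 and 78.8 CPM in the wild type and 75.1 and 65.1 CPM in the mutant (log2 fold change -0.19, SE 0.13, adjusted p = 0.424).

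Cacnb1 encodes the beta subunit of the skeletal muscle channel and is also transcribed elsewhere. The gene covers 21.5 kb of chromosome 11 (98001508 to 98023034, minus strand), and 7 of the 10 peaks in its window lay within 1 kb of an end of another protein-coding gene. The peak at its first start (98021195 to 98023469) overlaps the ribosomal protein gene Rpl19, so position does not give it to 1 of the 2 genes. It had 21.1 and 19.7 CPM in the wild type and 27.6 and 28.1 CPM in the mutant. Its log2 fold change of 0.45 (SE 0.17) missed the threshold (adjusted p = 0.115), and the groups did not overlap. In all, 9 of the 10 peaks had a log2 fold change above 0, from 0.08 to 0.50, and the remaining value was -0.02. The strongest peak of the window, in Arl5c and within 1 kb of an end of Plxdc1 (97987013 to 97990189), had a log2 fold change of 0.08 (SE 0.13, adjusted p = 0.762).

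Cacna2d1 encodes the alpha2delta subunit that binds gabapentin and is the main form in heart and skeletal muscle. It spans 440.2 kb of chromosome 5 (15934264 to 16374511, plus strand) with 14 peaks, all in the gene body, and none passed the threshold with TMM factors. The peak at its start (15933797 to 15936101) had 26.1 and 23.3 CPM in the wild type and 33.2 and 20.4 CPM in the mutant (log2 fold change 0.12, SE 0.20, adjusted p = 0.775), so that the mutant libraries enclosed both wild-type libraries. A weak peak 303 kb downstream of the start (16237971 to 16238324) had 5.49 and 5.68 CPM in the wild type and 1.82 and 3.34 CPM in the mutant, a log2 fold change of -1.11 (SE 0.33) just short of the threshold (adjusted p = 0.0511). It was called lower with RLE factors (adjusted p = 0.049), total counts (0.0446) and loess offsets (0.0371), and without mutant replicate 2 (-1.61, 0.00307). It was not called without any of the other 3 libraries (0.159 to 0.224). Over the gene 10 of 14 log2 fold changes were below 0, and 4 were above 0.

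Cacna2d2, the alpha2delta gene mutated in ducky mice and best known from the cerebellum, spans 129.6 kb of chromosome 9 (107399733 to 107529346, plus strand). Its listed start lay in no peak, and the 5 peaks in its body summed to 28.8 and 28.4 CPM in the wild type and 27.1 and 26.1 CPM in the mutant. The peak with the smallest p lay in the flank before the gene (107381780 to 107382119), at 4.07 and 4.75 CPM against 2.56 and 3.03 CPM (log2 fold change -0.66, SE 0.32, adjusted p = 0.23). The strongest peak in its window (107533283 to 107535598) lay at the neighbouring gene Tmem115 and had 78.7 and 83.5 CPM in the wild type and 69.7 and 78.6 CPM in the mutant (log2 fold change -0.13, SE 0.13, adjusted p = 0.619).

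Summed over all peaks of its window, Cacnb2 was the member that changed. Counts were summed in the same way for 16979 protein-coding genes and tested together, and 1.02% of these genes fell and 1.63% rose. Cacnb2 summed to 251.6 and 267.3 CPM in the wild type and to 216.7 and 191 CPM in the mutant, a log2 fold change of -0.38 (SE 0.08, adjusted p = 0.0248). The groups did not overlap, and the test did not pass without wild-type replicate 2 (adjusted p = 0.16) or without mutant replicate 2 (0.0589).

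The other 6 genes did not pass. Cacna1c summed to 824.2 and 876.9 CPM in the wild type and 786.2 and 735.5 CPM in the mutant (log2 fold change -0.19, SE 0.08, adjusted p = 0.237). Cacnb1 summed to 178.3 and 173 CPM against 212.7 and 197.5 CPM (log2 fold change 0.19, SE 0.08, adjusted p = 0.229). In both genes the groups did not overlap, and in Cacnb3 they did not overlap either (162.2 and 161.7 against 177 and 168 CPM, log2 fold change 0.06). The share of all gene sums without overlap was not counted. The lack of overlap in these genes and in Cacnb2 is therefore a description only. Cacna1d, Cacna2d1 and Cacna2d2 had overlapping groups and log2 fold changes of 0.03, -0.09 and -0.09. Of the wild-type Cacna2d2 sums of 191.3 and 194.1 CPM, 158.4 and 161 CPM lay beyond the gene end, at other genes. The Cacna1d sum includes the peak at Dcp1a, with or without the flanks. Restricted to peaks in the gene body, the value of Cacnb3 was 0.52 (adjusted p = 0.0525) and that of Cacnb1 was 0.41 (0.1). Those of Cacna1d and Cacna2d2 were 0.06 and -0.13 and did not pass. The Cacnb1 value includes the peak at its first start, which overlaps Rpl19.

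**Figure D4:**
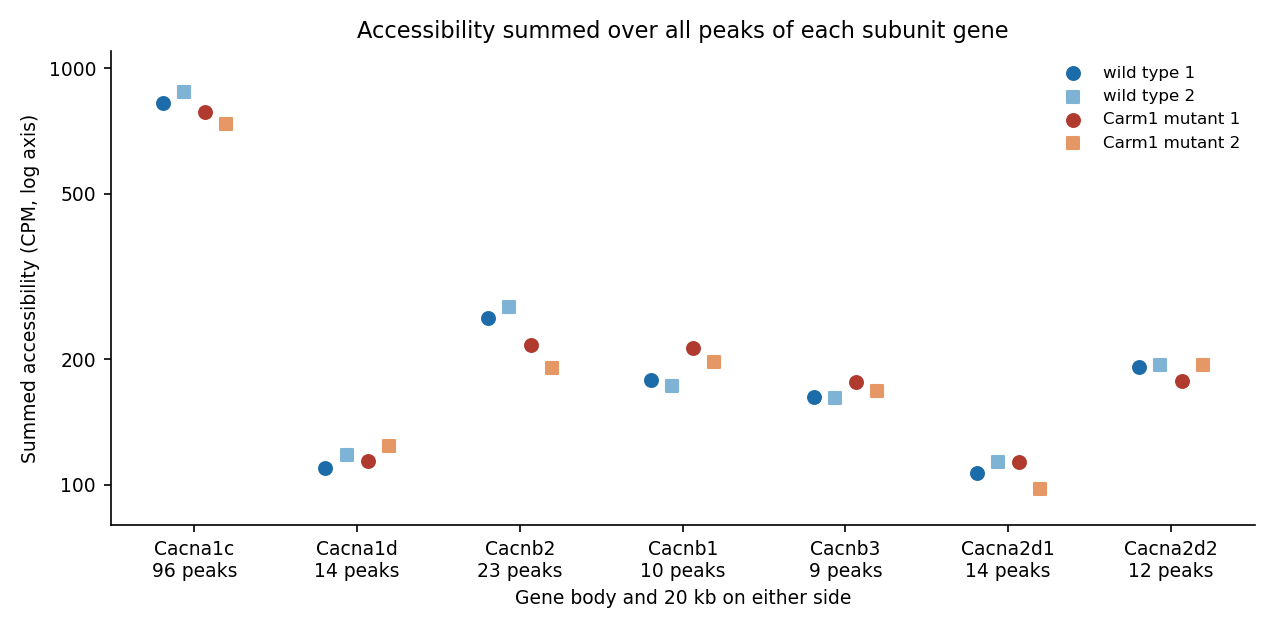
Accessibility summed over all peaks in the gene body and 20 kb on either side, in CPM on a log axis, for each subunit gene and library. Both mutant libraries of Cacnb2 (216.7 and 191 CPM) lie below both wild-type libraries (251.6 and 267.3 CPM), and those of Cacna2d1 and Cacna1d overlap the wild type.

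Per kb of gene body, the wild-type level was highest at Cacnb3, with 1.71 and 1.61 CPM per kb, followed by Cacnb1 with 1.46 and 1.52 and Cacna1c with 1.32 and 1.395. Cacnb2 followed with 0.654 and 0.694. Cacna2d1 (0.242 and 0.258), Cacna1d (0.24 and 0.256) and Cacna2d2 (0.222 and 0.219) were lowest. The ranges of Cacna2d1 and Cacna1d overlapped, so their order was not resolved, while the libraries of each other neighbouring pair did not overlap. Cacnb3 and Cacnb1 were the shortest genes, at 16.1 and 21.5 kb, with 3 body peaks each. Body sums also include peaks that overlap other genes: Dcp1a in Cacna1d, Rpl19 in Cacnb1 and Dcp1b in Cacna1c. The order therefore describes these gene bodies with their length and overlaps. In the mutant Cacnb3 and Cacnb1 had 2.39 and 2.42 and 2.02 and 1.99 CPM per kb, and Cacnb2 had 0.563 and 0.496. Cacna1c and Cacna1d differed in the density of peaks as well, with 15.2 and 2.88 peaks per 100 kb of gene body.

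Of the 12 other fits of the peak table, that without a filter equalled the main fit, because filterByExpr removed 0 peaks. The call at the Cacnb2 peak at 14936363 held in all 12, with log2 fold changes from -2.46 to -1.77. That of its neighbour at 14929496 did not survive leaving out wild-type replicate 2 (adjusted p = 0.0537). The Cacna1c calls at 119018238 and 119201509 were also lost without wild-type replicate 2, where their log2 fold changes were -0.71 and -0.72. The Cacna1c call at 119171942 failed when either wild-type library (0.24 and 0.144) or mutant replicate 1 (0.0653) was left out, and with DESeq2 (0.0855). The Cacna1d call was lost without either wild-type library (0.138 and 0.127) and with DESeq2 (0.0557). The Cacnb3 call held in 4 of the 12 other fits, and it failed when either wild-type library (0.181 and 0.251) or mutant replicate 1 (0.126) was left out. A fit without 1 library takes the spread of its genotype from the other genotype's pair. Calls over all peaks also changed with the library left out, and were fewest without wild-type replicate 2. A call lost there is therefore not particular to the peak.

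**Figure D5:**
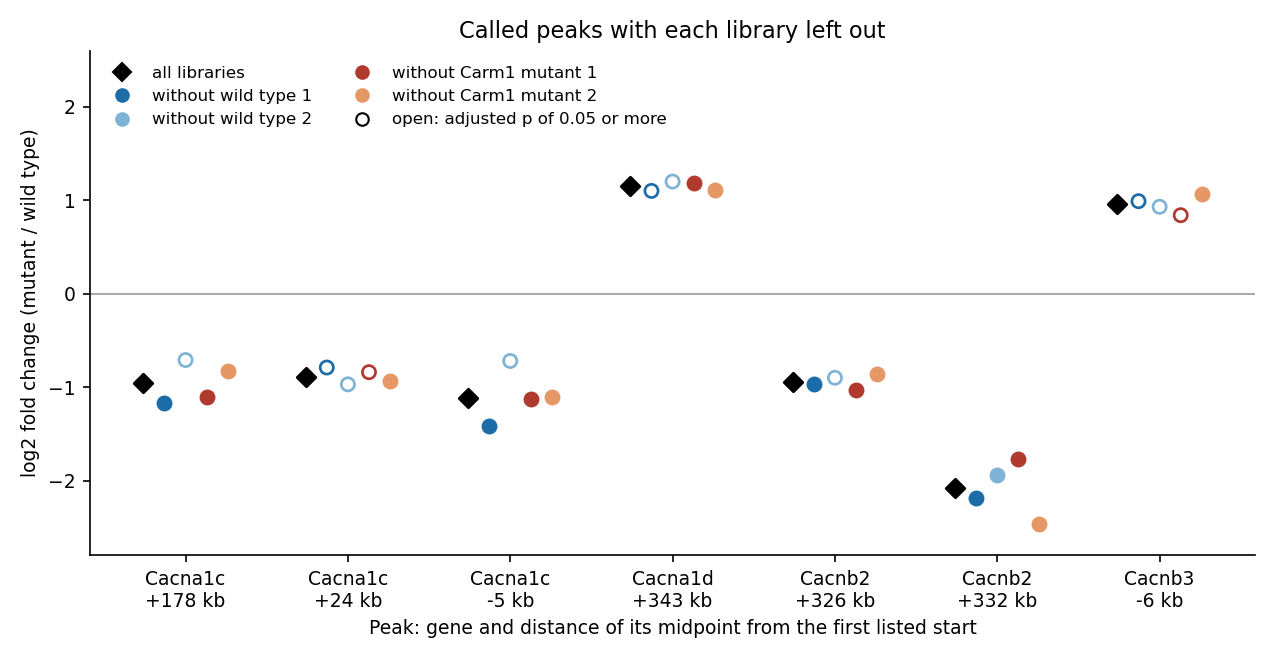
Log2 fold change (mutant over wild type) of the 7 called peaks with all 4 libraries (black diamonds) and with each library left out in turn (circles); open circles have an adjusted p of 0.05 or more. The genotypes do not overlap at any of these peaks, so leaving out a library could hardly change a sign. The Cacnb2 peak at +332 kb is the one that is filled in every fit shown.

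Other genes of the channel and its pathway showed calls in both directions. Among the channel paralogs, 62 peaks lay at 9 of 11 genes (none at Cacng6 and Cacng8). Of these peaks 5 fell and 3 rose (2.45% and 3.05% over all peaks), with a median log2 fold change of -0.19. All 5 that fell lay at Cacna2d3, which encodes another alpha2delta subunit, and 1 further Cacna2d3 peak rose. Its lower peak with the smallest p (chromosome 14, 29031905 to 29032155) had 2.66 and 4.95 CPM in the wild type and 0.852 and 1.39 CPM in the mutant (log2 fold change -1.77, SE 0.42, adjusted p = 0.0186). Summed counts of Cacna2d3 fell by 0.53 on the log2 scale (adjusted p = 0.0167). The other 2 rises lay at Cacna2d4, with a peak at chromosome 6, 119329177 to 119329773, that went from 2.38 and 1.24 CPM to 4.87 and 10.4 CPM (log2 fold change 2.08, SE 0.38, adjusted p = 0.00404), and its summed counts rose by 0.58 (adjusted p = 0.0494). Cacnb4, the remaining beta subunit gene, had 23 peaks without a call.

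Among 24 genes of channel regulators, 212 peaks included 9 that rose and 1 that fell (3.05% and 2.45% over all peaks). Their median log2 fold change was 0.07, and the list was not tested as a set. The rises lay at Adrb1, the beta1-adrenergic receptor gene (4 of 14 peaks), at Ahnak, whose product binds the beta subunit (2 of 26), at Camk2d, a kinase that facilitates the channel (2 of 27), and at Rem2, a small GTPase that inhibits it (1 of 3). One of the Ahnak rises (chromosome 19, 8982490 to 8983879) had overlapping genotypes, at 13.6 and 10.6 CPM in the wild type and 13.6 and 39 CPM in the mutant. The fall lay at Calm2, a calmodulin gene. The peaks with the smallest p were at Camk2d (means of 2.61 and 6.69 CPM in wild type and mutant, log2 fold change 1.36, SE 0.32, adjusted p = 0.0177) and Ahnak (means of 1.89 and 5.21 CPM, log2 fold change 1.46, SE 0.35, adjusted p = 0.0185). Stac2 shares 4 of its peaks with the window of Cacnb1. None of the 24 genes passed on summed counts, Rrad and Cav3 among them (log2 fold changes 0.20 and 0.35).

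Among 12 genes of calcium release, storage and removal, 313 peaks included 7 that rose and 4 that fell (3.05% and 2.45% over all peaks). Their median log2 fold change was -0.02. Trdn, which encodes the release channel partner triadin, had 3 of 12 peaks higher and rose by 0.51 on summed counts (adjusted p = 0.0221). Asph, whose locus also encodes junctin, had 2 of 24 peaks higher and 2 lower, and its strongest call (chromosome 4, 9529625 to 9530167) fell from means of 15.05 to 3.78 CPM (log2 fold change -1.99, SE 0.26, adjusted p = 0.000326). A peak at Atp2b4, a plasma membrane calcium pump gene (chromosome 1, 133695894 to 133696319), rose from a mean of 2.22 to 8.53 CPM (log2 fold change 1.94, SE 0.29, adjusted p = 0.00129). Ryr2, the release channel gene, had 1 higher and 1 lower call among 125 peaks. Atp2a2, Pln and Slc8a1, the genes of calcium uptake and exchange, had none among 40, 11 and 34 peaks.

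The genes most like Cacnb2 over the 4 libraries, by the root mean square distance between centred log2 summed CPM, were Atg4c (0.007) and Mgat4d and Elmod2 (0.009 each), among 16975 genes compared. Mgat4d and Elmod2 share their single peak. For Cacna1c they were Qpctl (0.008), Rlf (0.009) and Ndufaf4 (0.009). None of these genes passed the test on summed counts (adjusted p from 0.0908 to 0.582), and with 4 libraries such likeness is a description only.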

How the data were processed

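ATAC-seq libraries from heart, 2 wild-type and 2 Carm1 mutant, were compared. The submitters' processing notes name FastQC, Bowtie2 and the build mm10; how peaks were called and merged, and how reads were filtered, is not given in the sources used here. The authors deposited raw counts per peak, whole numbers without normalization, per the column headers, as deposited. Coordinates are printed as deposited, and whether starts count from 0 or 1 is not stated. Gene ends and starts came from RefSeq tables of GRCm38.p6, without exons. Library depths, in the report, set the counting precision.

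Counts of all 87948 peaks were tested between genotypes, without other terms, by the quasi-likelihood method of edgeR 4.0.16 (R 4.3.3; TMM, filterByExpr, which removed 0 peaks; Benjamini-Hochberg adjusted p under 0.05), with 2 residual degrees of freedom. Standard errors were derived from the test statistic. Counts summed over the gene body and 20 kb on either side were fitted likewise over 16979 genes; a peak near several genes entered each. Alternatives were RLE factors, total counts, cyclic loess offsets, no filter, a mean CPM of at least 2, DESeq2 1.42.0, limma 3.58.1 voom, a replicate block, each library left out, other windows and an adjusted p under 0.1. The procedure was tested on simulated counts.

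The named peaks were every called member peak, the strongest peak and those at starts of each gene, the peak with the smallest p of genes with no call, and, in each of 3 pathway lists, the 2 of lowest p. Further peaks near the threshold or in clusters were named after their values were seen. Members, lists and rules were chosen with earlier results of these data known. Sequences of peaks away from starts were not used here. Tables were made with Python 3.11.15.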

Additional observations from a re-analysis of the deposited data

How the results depend on the processing

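With DESeq2 1365 peaks were higher and 1008 lower in the whole table, and with a replicate block 5230 and 4494; leaving out 1 library gave 642 to 4307 higher and 364 to 4132 lower. Among the subunit gene peaks, 1 was higher with total counts, with a mean CPM of at least 2, with limma voom and in gene bodies only, 0 with DESeq2, 5 within 50 kb, 6 at an adjusted p under 0.1 and 7 with the block. Lower peaks numbered 9 with total counts or loess offsets, and 15 at an adjusted p under 0.1 or with the block. Over all peaks the lower share was 2.92% with total counts, 2.47% with loess offsets, 4.69% at an adjusted p under 0.1 and 5.11% with the block, and the higher share 2.75%, 3.75%, 5.49% and 5.95%. Lower and higher shares over all peaks were 1.15% and 1.55% with DESeq2 and 1.84% and 2.38% with limma voom. They were 2.24% and 2.69% with a mean CPM of at least 2. With the block 1 peak at a start was called. With 1 library left out, calls among the subunit gene peaks were fewer or more in the same fits as over all peaks. They are therefore not read as results about these genes. Among these fits, peaks at starts were called only without mutant replicate 2. Called peaks of the paralogs numbered 3 with DESeq2 and 5 with limma voom, and those of the regulators 4, 5 and, with the block, 23. Those of calcium release and removal numbered 25 with the block. Leaving out 1 library gave 2 to 10, 1 to 18 and 3 to 26 for these 3 lists. The cause of these differences was not tested. The labels give both genotypes the replicate numbers 1 and 2 but do not say that a number marks a shared animal, litter or batch. Same-numbered libraries deviated together with a correlation of 0.11 over peaks, so the block is no paired result. With the block 3 named peaks without a call passed: Cacna1c at 119138839 (adjusted p = 0.0157), Cacnb3 at 98631120 (0.0225) and Cacna2d1 at 16237971 (0.00708).

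No called peak of the subunit genes changed direction in any fit. In all 7 the mutant libraries lay outside the wild-type range, so leaving out a library could hardly reverse the sign. Directions reversed when a library was left out at 3 peaks at starts and in 2 summed values, none of them called: Cacna1c at 119106777 (-0.08 to 0.19), Cacnb3 at 98634003 (-0.37 to 0.19), Cacna2d1 at 15933797 (-0.27 to 0.43), and the sums of Cacna1d (-0.04 to 0.10) and Cacna2d1 (-0.19 to 0.00). Without its 2 called peaks, the log2 ratio of summed Cacnb2 accessibility was -0.11, against -0.35 with them, a comparison chosen after seeing the data. At the edge of the window, the outermost peak inside (19686 bp beyond Cacnb3) had a log2 fold change of 0.03 and the nearest outside (20022 bp beyond Cacnb1) -0.10. Further out, within 50 kb, edgeR's test called peaks higher near Cacnb3 and Cacna1d, and none was called lower. They lay 27955 bp (1.19, adjusted p = 0.0215) and 47659 bp (0.71, 0.0489) beyond Cacnb3 and 39565 bp beyond Cacna1d (1.46, 0.00882). With 13 to 29 counts in the weakest member peak per library, small differences were not detectable in weak peaks.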
